A study of Mus musculus with 30 samples.

Results

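Homologous recombination and the Fanconi pathway are carried here by 37 listed genes out of the 55401 genes in each deposited table. The list was set by gene name and role, not by any measured value of these samples, and all 37 genes were found. They comprise 8 Fanconi core genes, 2 genes of the FANCD2-FANCI complex, 5 genes of the BRCA group, 5 genes of the MRN complex and of DNA end resection, 5 genes of the group Rad51b, Rad51c, Rad51d, Xrcc2 and Xrcc3, 3 genes of the RAD52 and RAD54 families, 2 RecQ helicases, 3 genes of structure-specific nucleases and 4 checkpoint kinases.

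Homologous recombination repairs broken DNA by copying the intact sister chromatid, and so works mainly in S and G2 phase. The MRN complex finds and trims the ends, BRCA1, PALB2 and BRCA2 prepare the trimmed strand for the search for homology, and nucleases and helicases resolve the joint molecules. The Fanconi core complex is a ubiquitin ligase that marks FANCD2 and FANCI at DNA interstrand crosslinks, and ATM and ATR signal the damage to the cell cycle. Mouse embryonic stem cells spend much of their cycle in S phase and are known for high levels of these proteins.

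The study measured nuclear RNA, which holds nascent and processed transcripts of the nucleus, in mouse embryonic stem cells whose SRCAP protein can be degraded. SRCAP is the ATPase that places the histone variant H2A.Z in chromatin. CGR8 is the parental line, which carries no degron. SYAT cells descend from 1 clone of it that has YPet-AID fused to SRCAP on both alleles. They carry the plant receptor OsTir1, so that IAA (500 µM) sends SRCAP to the proteasome, and were sorted for loss of the YPet signal under IAA. SYAT control cells and their derivatives were kept in auxinole, an inhibitor of that receptor. All lines were moved from medium with 2 kinase inhibitors to serum and LIF for the last days before the experiments.

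There were 30 libraries in 15 groups of 2 biological duplicates. SYAT cells were collected as control and after 2, 4, 6 and 8 h of IAA, and CGR8 cells as control and after 4 h. SYAT cells sorted in early G1 (EG1) or late G1 (LG1) were control or received IAA for 1 h. By the methods of the paper, these cells also carried mCherry with a mitotic degron, which is lost in mitosis. They were sorted by mCherry and Hoechst signal. The wtSRCAP and cdSRCAP lines are each 1 SYAT clone that expresses wild-type or catalytically dead SRCAP fused to mCherry from a doxycycline-inducible promoter. Both received doxycycline for 24 h and were control or received IAA for 4 h. Before RNA was taken, both were sorted for high mCherry levels that were alike in the 2 lines. Exon counts per library were 45617992 to 60214521 for CGR8, 17540823 to 22873893 for the SYAT time course, 20439335 to 26672402 for EG1, 19740778 to 24382959 for LG1 and 12236493 to 26369773 for wtSRCAP and cdSRCAP. Levels are given as CPM, that is counts scaled to a common library size by TMM within a table, and no value was compared between tables.

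The label of the cells held: the summed level of 10 pluripotency markers was 2167 to 5980 CPM, against 3.68 to 403 CPM for each of 4 lists of endoderm, mesoderm, neural and fibroblast markers, the highest of these being the neural list in LG1. Srcap RNA itself was 39.8 and 45.8 CPM in SYAT control cells and 44.8 to 60.2 CPM after IAA, so that the degradation, which acts on the protein, was not visible in the RNA and checks no label. A pair of libraries stood apart over all genes. SYAT IAA 6 h replicate 2 lay 0.545 log2 units (root mean square) from the mean of its table against 0.198 to 0.317 for the other 9, and wtSRCAP IAA replicate 1, the shallowest library, lay 0.572 from its mean against 0.325 to 0.424. The medians that hold these libraries, and the values that lean most on them, are given without them too.

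All 37 genes had exon counts in every library and passed the filter on low counts in each table. Per length of exon, the highest levels in SYAT control cells were those of Rad50, the ATPase of the MRN complex, at 23.0 ± 2.17 CPM per kb (SD, n = 2), of Eme1, a nuclease subunit, at 21.9 ± 1.21, and of Brca1 at 21.3 ± 2.91. These 3 levels did not differ beyond their spread. Length was that of all annotated exons of a gene joined. It was 12521 bases for Rbbp8, the resection factor CtIP, which was at 21.5 CPM before division by length. The lowest levels per length were Rad51b at 0.687 ± 0.0557, Fancc at 1.41 ± 0.252 and Rbbp8 at 1.72 ± 0.0463. The members thus spanned more than an order of magnitude, and the MRN genes and the BRCA1-BARD1 pair sat well above Rad51b, Rad51c and Xrcc3.

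**Figure D1:**
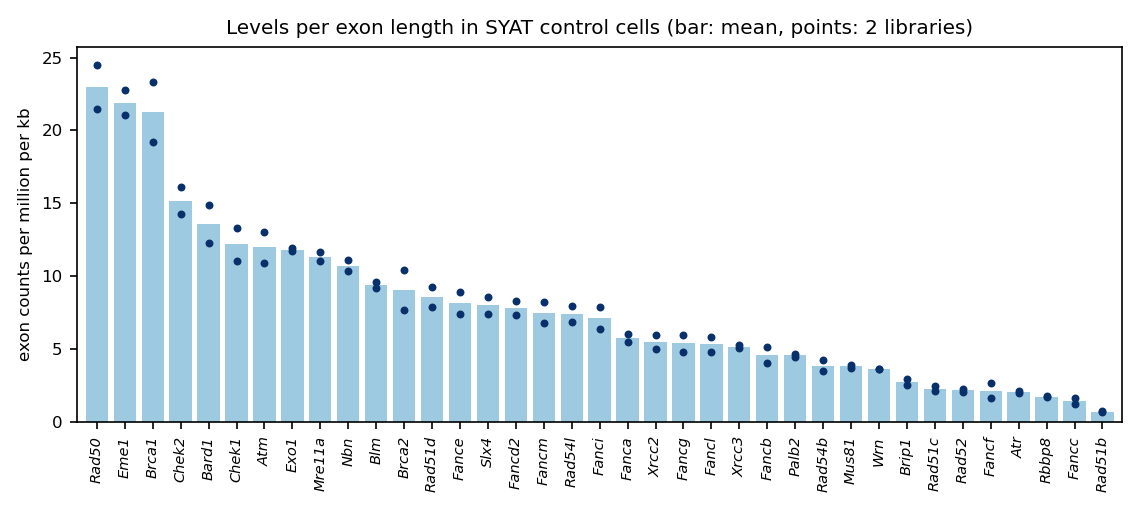
Mean exon CPM per kb of exon in SYAT control cells (y axis) for each of the 37 genes (x axis, ordered by level), with points for the 2 libraries. Rad50, Eme1 and Brca1 stand at 21.3 to 23.0 and Rad51b at 0.687.

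RefSeq promoter windows of 300 bases, 250 before and 50 after the start, were found for 28 of the 37 genes, as 31 promoters in build GRCm38.p6. Fancd2 and Nbn, the genes that passed the test over time in exons, were not among the 28. The windows below are shown because the values of their genes are described at length: Fancl and Atr, which stood lower late in the time course but did not pass its test, and Brca1 and Bard1, which stood higher in all LG1 than in all EG1 libraries. Capitals mark, on either strand, the words of 6 motifs: E2F (TTTGGCGC, TTTCCCGC or TTTGGCGG), NFY (CCAAT), NRF1 (GCATGCGC), SP/KLF (GGGCGG), ETS (CCGGAAG) and CHR (TTTGAA).
Fancl (chr11:26386834-26387133, plus strand): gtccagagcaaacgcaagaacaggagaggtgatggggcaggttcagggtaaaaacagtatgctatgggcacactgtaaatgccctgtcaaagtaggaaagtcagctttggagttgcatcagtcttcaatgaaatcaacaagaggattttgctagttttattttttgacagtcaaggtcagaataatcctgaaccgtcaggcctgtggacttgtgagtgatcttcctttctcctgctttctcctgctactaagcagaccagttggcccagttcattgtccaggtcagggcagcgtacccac
Atr (chr9:95857347-95857646, plus strand): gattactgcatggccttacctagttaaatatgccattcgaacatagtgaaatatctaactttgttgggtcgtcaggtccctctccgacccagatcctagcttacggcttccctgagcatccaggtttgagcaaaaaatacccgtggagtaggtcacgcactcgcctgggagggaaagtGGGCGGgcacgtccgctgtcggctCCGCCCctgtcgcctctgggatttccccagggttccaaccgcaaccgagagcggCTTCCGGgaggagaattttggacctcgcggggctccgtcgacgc
Brca1 (chr11:101551906-101552205, minus strand): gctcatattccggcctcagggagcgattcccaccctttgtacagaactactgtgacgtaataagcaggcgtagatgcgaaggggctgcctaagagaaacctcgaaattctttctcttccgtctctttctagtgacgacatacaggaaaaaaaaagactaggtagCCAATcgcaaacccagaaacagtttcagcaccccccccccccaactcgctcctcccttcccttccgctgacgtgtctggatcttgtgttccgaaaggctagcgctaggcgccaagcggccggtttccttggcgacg
Bard1 (chr1:71102923-71103222, minus strand): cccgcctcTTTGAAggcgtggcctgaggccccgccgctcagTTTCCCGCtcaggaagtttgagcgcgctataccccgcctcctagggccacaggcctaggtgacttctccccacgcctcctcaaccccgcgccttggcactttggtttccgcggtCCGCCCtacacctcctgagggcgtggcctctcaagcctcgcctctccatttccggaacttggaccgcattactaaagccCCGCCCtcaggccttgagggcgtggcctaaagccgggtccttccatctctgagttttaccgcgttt
The Fancl window held none of the words, at 47.0% GC, whereas the Bard1 window held 4 matches at 63.3% GC. The Fancl window lies inside the annotated gene, which starts at chr11:26386135. It does not cover the annotated start, so the lack of words holds for this window only. The E2F words were in 19.4% of the 31 promoters and in 2.10% of all 32851 promoters of that length, and belonged to Bard1, Brca2, Chek1, Chek2, Fancg and Rad51c. SP/KLF words were in 61.3% against 35.7%, NFY in 61.3% against 37.4%, ETS in 22.6% against 8.86%, NRF1 in 9.68% against 2.71% and CHR in 9.68% against 17.9%. The median GC was 58% in the 31 promoters and 52.7% in all promoters, and its part in these shares was not tested. A match is a run of letters and not a bound site.

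The time course asked how nuclear RNA changed as SRCAP was lost. Most of the 37 genes lay somewhat lower after IAA than in control at every time, by a small amount, and few passed a test one by one. Of the 37, 33 had a log2 fold change below 0 at 2 h, 33 at 4 h, 30 at 6 h and 30 at 8 h, against 49.4%, 47.6%, 49.1% and 46.8% of the 19205 genes tested. Their median log2 fold change was −0.14, −0.21, −0.23 and −0.18, against 0.00, 0.02, 0.01 and 0.03 over all genes. These 4 comparisons share the same 2 control libraries, of which replicate 2 was the highest of the 10 libraries for 18 genes. Without it the medians were −0.08, −0.13, −0.19 and −0.14, with 25, 26, 30 and 26 genes below 0. At 6 h it was −0.25 with 33 genes below 0 without replicate 2, the library that stood apart. At 8 h the median was −0.08 without replicate 1, which was the lowest library for 14 genes, and −0.34 without replicate 2. The summed level of the 5 mesoderm markers, none of them at 0, was 9.69 and 13.6 CPM in SYAT control and 15.1 to 25.1 CPM in the 8 IAA libraries, and 3, 2, 2 and 3 of the 5 lay above both controls at the 4 times. The 6 fibroblast markers summed to 21.8 and 26.9 CPM in control and 23.6 to 39.0 after IAA, with Lum at 0 from 4 h on. The part of such cells in these differences was not tested.

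No gene of the list passed an absolute log2 fold change of 0.5 with an adjusted p under 0.05 in edgeR's quasi-likelihood test at any time, where 0%, 0%, 0.0677% and 0.00521% of all genes did at 2, 4, 6 and 8 h. At an unadjusted p under 0.05, 0 genes were lower at 2 h, 4 at 4 h, 6 at 6 h and 4 at 8 h, against 2.55%, 6.00%, 8.21% and 8.44% of all genes. One gene, Fance, was higher at 6 h, against 7.93% of all genes. DESeq2 called 0 genes at 2, 4 and 8 h, where it called 0.0509%, 0.859% and 2.27% of the genes with an adjusted p, and 1, Atr, at 6 h, where it called 3.98%. In bulk RNA, fewer cells that express a gene and less RNA per cell cannot be told apart.

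The slope of log2 expression over the hours of IAA used all 10 libraries. Fancd2 and Nbn fell with time at an adjusted p of 0.029 and 0.036 (edgeR), where 3.35% of all genes passed in either direction. DESeq2 called the same genes and Fancl, where 8.35% of all genes passed. At an unadjusted p under 0.05, 6 of the 37 genes had a slope below 0 and 0 above, against 11% of all genes below, so the share of the list was close to the background. The count of 2 did not hold without every library. It was 0 without either control library, without either 2 h library or without 6 h replicate 1. It was 1 without either 4 h library (Fancd2), without 8 h replicate 1 (Nbn) or without 8 h replicate 2 (Fancd2), and 4 without 6 h replicate 2, when Fancl and Atr were added.

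**Figure D2:**
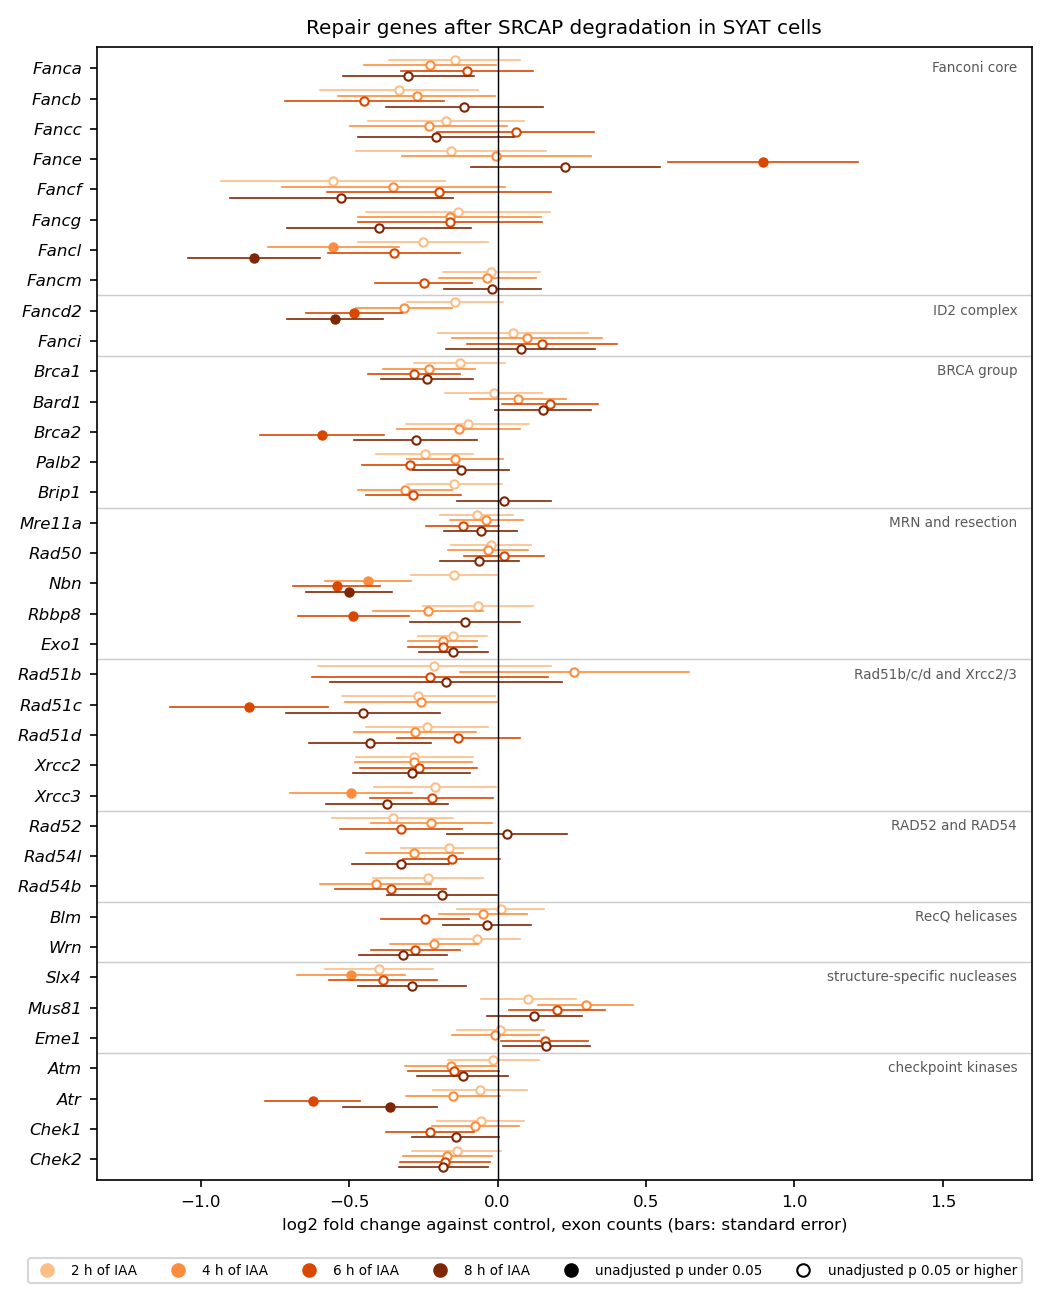
Log2 fold change in exon counts against SYAT control (x axis) for the 37 genes (y axis, by role) after 2, 4, 6 and 8 h of IAA (colours, n = 2 each), with bars for the standard error and filled points at an unadjusted p under 0.05. Most points lie left of 0; Fance at 6 h, at 0.90, is the filled point to the right.

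Among the Fanconi core genes, Fancl, which encodes the ubiquitin ligase subunit, had the largest difference at 8 h. It was at 19.6 and 16.1 CPM in control, 16.1 and 13.9 at 2 h, 12.2 and 12.1 at 4 h, 11.2 and 16.8 at 6 h, and 9.49 and 10.7 at 8 h. All IAA libraries but 6 h replicate 2 lay below both controls, 2 h replicate 1 only just. The log2 fold change at 8 h was −0.82 ± 0.22 (SE; adjusted p = 0.15, edgeR), and the slope was −0.09 ± 0.03 per hour (adjusted p = 0.075). The RefSeq start of Fancl lies inside the annotated gene (chr11:26386135-26471876), which shares 462 exon bases with other genes, among them Vrk2 on the opposite strand, and the strand setting of the counting is not given in the sources used here.

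Fance, which links the core complex to FANCD2, showed the opposite sign at 6 h, and 1 library made the difference. Its level was 28.3 and 23.5 CPM in control and 28.0 and 68.3 at 6 h, and the fold change of 0.90 ± 0.32 (adjusted p = 0.22) came from replicate 2, the library that stood apart. The slope of Fance was 0.08 per hour with that library and 0.04 without it. Fancb, a core subunit encoded on the X chromosome, was at 11.9 and 15.3 CPM in control and at 7.12 to 13.1 in the 8 IAA libraries, with its lowest value again in 6 h replicate 2. Fanca was at 48.0 and 52.4 in control and 34.4 to 57.6 after IAA, and Fancg at 18.3 and 22.6 against 12.7 to 23.9, both overlapping. Fancm, the DNA translocase, was at 70.4 and 85.5 against 61.0 to 86.3.

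Fancd2, whose product is the ubiquitinated clamp of the pathway, declined step by step. It was at 57.8 and 65.7 CPM in control, 54.0 and 57.9 at 2 h, 46.6 and 52.8 at 4 h, 40.3 and 48.1 at 6 h, and 37.7 and 46.9 at 8 h. Only 2 h replicate 2 overlapped the controls. The log2 fold change was −0.31 ± 0.16 at 4 h, −0.48 ± 0.16 at 6 h and −0.55 ± 0.16 at 8 h (adjusted p = 0.62, 0.20 and 0.18, edgeR), and the slope was −0.07 ± 0.02 per hour. Its partner Fanci gave no such series, at 36.6 and 45.3 CPM in control and 35.5 to 53.1 after IAA.

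No gene of the BRCA group had all 8 IAA libraries on one side of both controls. Brca1 was at 164 and 199 CPM in control, 149 and 183 at 2 h, 146 and 164 at 4 h, 155 and 144 at 6 h, and 142 and 166 at 8 h. Brca2, a mediator of recombination, was at 104 and 142 in control, 101 and 129 at 2 h, 99.3 and 125 at 4 h, 88.2 and 75.1 at 6 h, and 87.9 and 115 at 8 h. For Brca2 the 6 h libraries lay below all others but 1 of the 8 h libraries, with a log2 fold change of −0.59 ± 0.21 (adjusted p = 0.22, edgeR) and −0.48 without 6 h replicate 2. Palb2, which joins BRCA1 to BRCA2, was at 32.8 and 34.1 CPM in control and 25.5 to 33.6 after IAA, with both libraries below both controls at 2 h (27.8 and 28.6) and at 6 h (29.0 and 25.5). Bard1, the partner of BRCA1, was at 69.3 and 84.3 against 70.5 to 96.0, and Brip1, a helicase that binds BRCA1, at 18.9 and 21.7 against 15.6 to 21.5.

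Nbn, the MRN subunit that brings ATM to broken ends, had duplicates that lay close together at every time. Its level was 26.1 and 28.1 CPM in control, 25.3 and 23.7 at 2 h, 19.9 and 20.1 at 4 h, 19.1 and 18.1 at 6 h, and 19.4 and 19.0 at 8 h. All 8 IAA libraries lay below both controls, and the 6 from 4 h on lay between 18.1 and 20.1. The log2 fold change was −0.44 ± 0.15 at 4 h, −0.54 ± 0.15 at 6 h and −0.50 ± 0.15 at 8 h (adjusted p = 0.37, 0.13 and 0.17, edgeR). Of the other MRN genes, Rad50 was at 115 and 132 CPM in control and 109 to 128 after IAA, and Mre11a at 65.2 and 68.9 against 61.4 to 67.5. Rbbp8 was at 21.9 and 21.1 against 12.7 to 21.5, lowest in 6 h replicate 2. Exo1, the resecting exonuclease, was at 100.2 and 98.7 in control and 85.4 to 93.7 after IAA.

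Rad51b, Rad51c, Rad51d, Xrcc2 and Xrcc3, which act in complexes with one another during recombination, had medians of −0.24, −0.28, −0.23 and −0.37 at the 4 times. Rad51c was at 9.05 and 10.7 CPM in control, 6.43 and 9.98 at 2 h, 7.59 and 8.96 at 4 h, 5.62 and 5.46 at 6 h, and 6.26 and 8.16 at 8 h. Its lowest pair was at 6 h, with a log2 fold change of −0.84 ± 0.27 (adjusted p = 0.18, edgeR) and −0.81 without replicate 2. Xrcc3 was at 13.9 and 14.4 in control and 9.44 to 13.7 after IAA, all 8 libraries below both controls. Rad51d was at 34.3 and 29.2 against 21.2 to 33.6, and Rad51b at 2.73 and 2.43 against 1.47 to 3.73. Of the RAD52 and RAD54 families, Rad52, which anneals single strands, was at 11.8 and 12.9 against 8.87 to 14.2. Rad54l, a DNA translocase of recombination, was at 52.6 and 61.2 against 40.9 to 55.5, and Rad54b at 20 and 24.3 against 15.3 to 21.6, with 2075 of its exon bases shared with other genes, among them Fsbp.

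Wrn, a RecQ helicase with exonuclease activity, was at 27.4 and 27.5 CPM in control and 21.3 to 27.7 after IAA, with a slope of −0.04 ± 0.02 per hour (adjusted p = 0.14, edgeR). Slx4, the scaffold that carries structure-specific nucleases, was low from the first time on. It was at 56.7 and 65.6 in control, 43.0 and 49.7 at 2 h, 42.2 and 44.7 at 4 h, 40.3 and 53.3 at 6 h, and 44.1 and 56.1 at 8 h. All 8 IAA libraries lay below both controls, and the log2 fold change at 4 h was −0.49 ± 0.18 (adjusted p = 0.43). Mus81, a nuclease subunit, was the 1 gene with all 8 IAA libraries above both controls, at 14.4 to 16.9 against 14.0 and 13.1.

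Atr, the kinase that answers stalled replication forks, lay below both controls from 4 h on and was lowest at 6 and 8 h. It was at 45.9 and 49.5 CPM in control, 47.0 and 44.6 at 2 h, 43.9 and 42.0 at 4 h, 35.2 and 26.8 at 6 h, and 35.1 and 39.0 at 8 h. The log2 fold change at 6 h was −0.62 ± 0.16 (adjusted p = 0.11, edgeR) and −0.44 without 6 h replicate 2, and the slope was −0.06 ± 0.02 per hour (adjusted p = 0.10). Of its exon bases, 1366 are shared with other genes. Atm, the kinase that answers broken ends, was at 113 and 135 in control and 100.0 to 128 after IAA. Chek2, a target of ATM, was at 48.3 and 42.7 against 35.9 to 44.2.

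**Figure D3:**
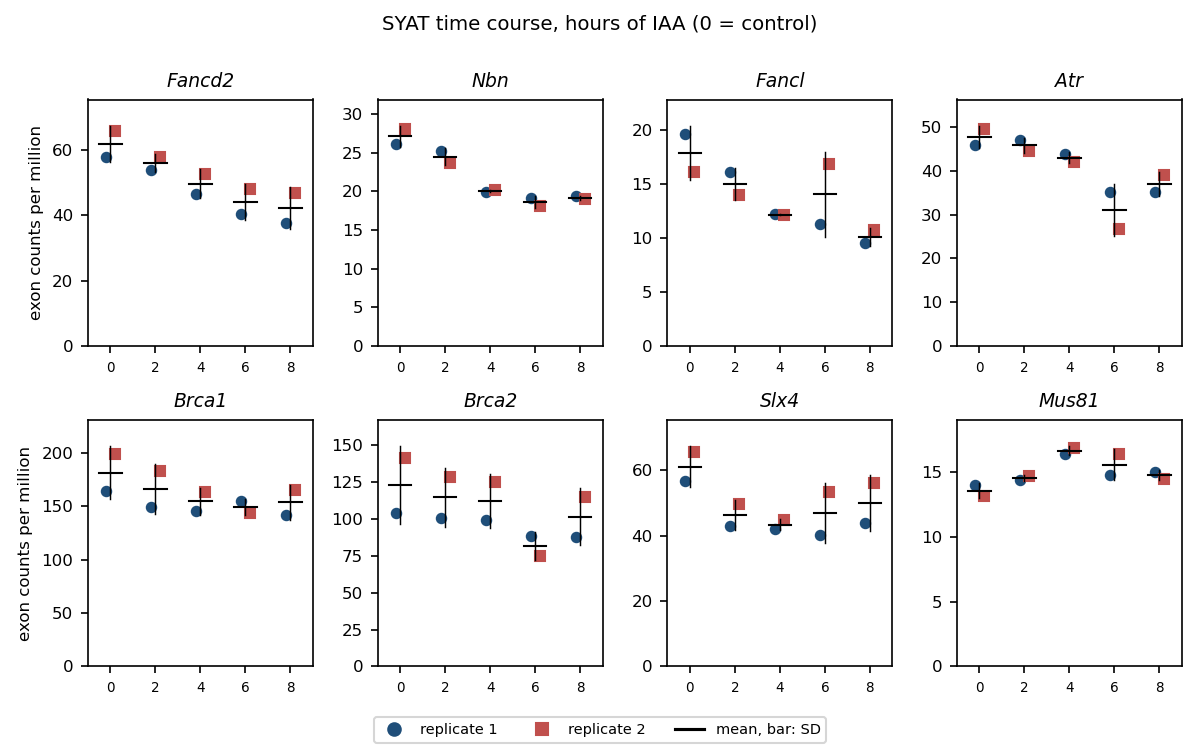
Exon CPM (y axis, from 0) of 8 genes in the 10 SYAT libraries over hours of IAA (x axis, 0 is control), with the mean and SD of each pair. Nbn and Slx4 lie below both controls in all 8 IAA libraries, Mus81 above both, and Brca1 overlaps them.

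Over the list, 4 of 37 genes (Exo1, Nbn, Slx4 and Xrcc3) had all 8 IAA libraries below both controls, against 9.20% of all genes, and 1 had them above, against 5.97%. Without 6 h replicate 2 the counts were 7 (with Fanca, Fancd2 and Fancl added) against 11.8% and 1 against 7.31%. Comparing 8 h with 2 h, which needs no control library, 21 of 37 genes were lower with a median of −0.04. None was called by edgeR (0% of all genes) or DESeq2, and 3 genes, Fancl at −0.57, Fancd2 at −0.40 and Nbn at −0.35, were lower at an unadjusted p under 0.05, against 3.41% of all genes. The median of the list was thus below 0 at 2 h already and differed little between 2 h and 8 h.

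The other repair and cell cycle lists named in this paragraph had medians from −0.26 to 0.15. A further list of 50 other homologous recombination and Fanconi genes is not reported here. The 14 end joining genes tested, which rejoin ends without a template, had medians of −0.10, −0.14, −0.26 and −0.17. For the 7 mismatch repair genes the medians were 0.03, 0.01, −0.07 and −0.01. Of 36 excision repair genes, 2 fell over time (Neil3, a glycosylase, and Ercc3, a helicase of TFIIH), against 3.35% of all genes, with medians of −0.10, −0.18, −0.03 and −0.15. For the cell cycle, 24 S phase genes had medians of 0.03, −0.01, 0.03 and −0.03 and 18 mitotic genes 0.04, 0.08, 0.05 and 0.11. The 17 p53 target genes had medians of 0.15, 0.00, 0.01 and 0.10. By the slope, 0 genes of the end joining, mismatch repair, S phase, mitotic and p53 target lists passed.

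CGR8 cells received IAA without a degron, as a test of IAA itself. The SYAT controls were kept in auxinole, and its part in the differences of SYAT cells was not tested. The list was spread around 0 in CGR8: 17 of 37 genes were below 0, against 50% of all genes, with a median of 0.03. Fancb was at 11.1 and 8.89 CPM in control and 15 and 17.8 after IAA, a log2 fold change of 0.72 ± 0.20. Atr was at 39.4 and 51.5 against 62.6 and 66.5, at 0.50 ± 0.16. The direction was opposite to SYAT cells at 4 h, where both lay only narrowly below their controls. In CGR8 both lay higher in each IAA library than in each control, with an adjusted p of 0.54 for each (edgeR). Fance was at 62.3 and 31.4 in control and 31.0 and 26.0 after IAA, so that its change of −0.72 ± 0.28 was −0.13 without control replicate 1.

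Fancd2 was at 79.3 and 79.2 CPM in CGR8 control cells and 91.4 and 96.1 after IAA, and Nbn at 29.0 and 27.2 against 30.2 and 31.2. Fancl overlapped, at 27.6 and 25.1 against 25.4 and 27.3. Brca1 was at 248 and 285 against 278 and 277, Brca2 at 89.6 and 130 against 139 and 151, and Atm at 91.8 and 98.4 against 96.9 and 117. No gene of the list was called by edgeR, where 0.00988% of all genes were, or by DESeq2. At an unadjusted p under 0.05, 1 gene was lower and 3 were higher, against 4.12% and 5.04% of all genes. Without control replicate 1 edgeR called Fancb, and without control replicate 2 it called 4 genes, Fance, Atr, Brca2 and Fancf, with 2361 genes in all.

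Sorted cells gave the level of the list along G1, before the phase in which recombination works. In control cells 10 of the 37 genes had a log2 fold change of LG1 against EG1 below 0, against 50.2% of all genes, and the median was 0.17 against 0.00. The largest log2 fold changes were those of Brca1, Rad54l, Bard1, Exo1 and Brip1. Brca1 was at 62.8 and 101 CPM in EG1 control and 134 and 158 in LG1 control, Bard1 at 44.8 and 64.3 against 80.6 and 85.4, and Brip1 at 16.4 and 18.3 against 26.1 and 25. Rad54l was at 25.6 and 39.2 against 45.6 and 53, and Exo1 at 37.6 and 69.7 against 64.6 and 93.8, overlapping. The log2 fold changes of these 5 were 0.84 ± 0.27, 0.60 ± 0.21, 0.56 ± 0.18, 0.61 ± 0.25 and 0.56 ± 0.41, each with an adjusted p of 1 (edgeR). The other genes of the BRCA group had smaller values, Brca2 at 0.31 ± 0.16 and Palb2 at 0.21 ± 0.16. The summed neural markers were at 303 and 307 CPM in EG1 control and 341 and 368 in LG1 control, and with IAA at 326 and 334 against 312 and 403, and their part in these values was not tested.

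The libraries with IAA gave the same order. Brca1 was at 64.0 and 98.2 CPM in EG1 with IAA and 148 and 164 in LG1 with IAA, and Bard1 at 46.2 and 61.2 against 87.4 and 95.4. Fancd2 was at 38.8 and 49.7 in EG1 control, 39.4 and 52.0 in EG1 with IAA, 52.8 and 55.1 in LG1 control, and 55.4 and 63.6 in LG1 with IAA. For 11 of 37 genes all 4 LG1 libraries lay above all 4 EG1 libraries, against 2.53% of all genes, and for 0 below, against 2.06%. The 11 were Atm, Bard1, Blm, Brca1, Brca2, Brip1, Fancd2, Fancg, Rad54b, Rad54l and Xrcc3. Brca2 was at 137 and 159 in EG1 control and 176 and 192 in LG1 control, and Atm at 86.9 and 96.1 against 97.6 and 115.

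Nbn, by contrast, was at 22.7 and 26.8 CPM in EG1 control and 21.8 and 23.5 in LG1 control. Fancl was at 13.2 and 15.3 against 10.7 and 14.5, and Atr at 50.4 and 59.7 against 42.9 and 55.9. Of the genes with lower levels after IAA in the time course, these 3 were thus not among the 11 that stood higher in all LG1 libraries, whereas Fancd2 and Xrcc3 were. Without a replicate term, no gene was called by edgeR (0% of all genes) or by DESeq2, and 4 were higher at an unadjusted p under 0.05, against 0.709% of all genes. With a term for the replicate number, edgeR called 5 of the 37, Brca1, Bard1, Rad54l, Brip1 and Exo1, where 0.723% of all genes were called. Of the 24 S phase genes 0 were below 0, with a median of 0.29, and the median of the 18 mitotic genes was −0.32. The introns of EG1 and LG1 were counted in different ways, as given below, and whether the exon counts differ by this too was not tested.

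**Figure D4:**
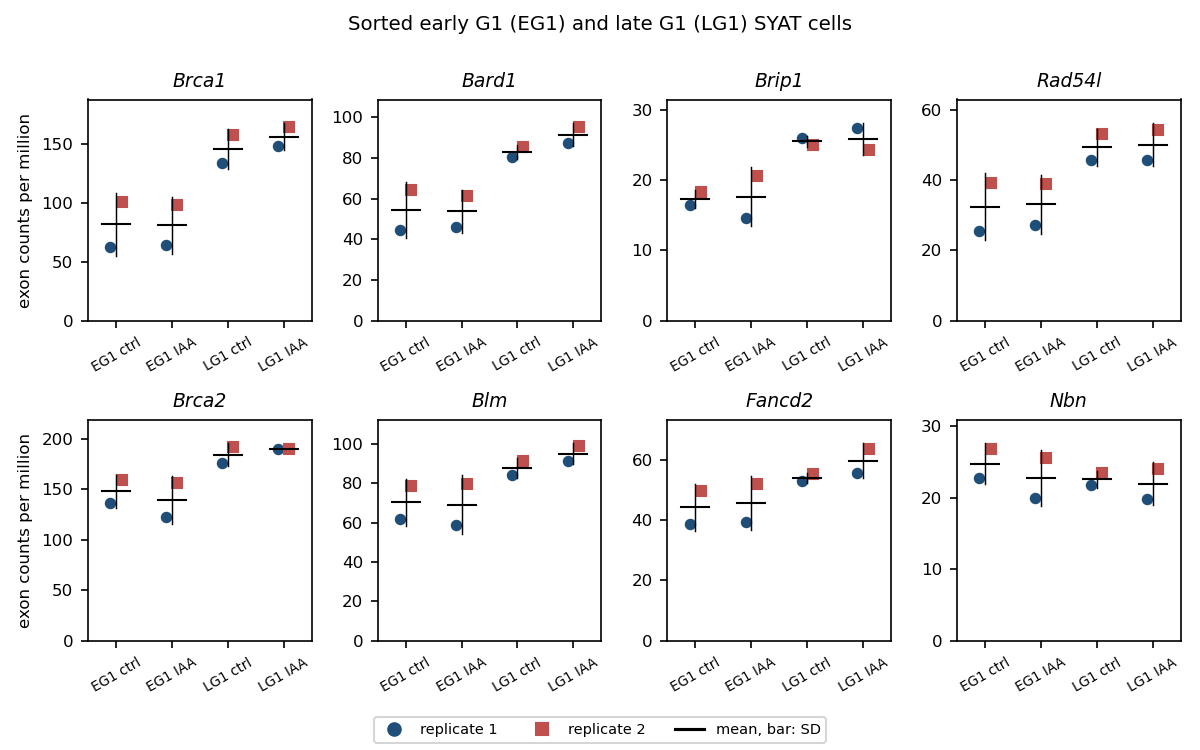
Exon CPM (y axis, from 0) of 8 genes in the 8 sorted libraries (x axis, EG1 and LG1, control and IAA for 1 h), with the mean and SD of each pair. Brca1, Bard1, Brip1, Rad54l, Brca2, Blm and Fancd2 are higher in all 4 LG1 libraries, and Nbn overlaps.

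After 1 h of IAA the list had medians close to 0 in both phases. In EG1 25 of 37 genes were below 0 with a median of −0.02 (49.9% of all genes; 18 and 0.00 with the size factors of DESeq2), and in LG1 12 were, with a median of 0.05 (47.5%). At an absolute log2 fold change over 0.25 and an unadjusted p under 0.05, the lenient threshold used in the study for these libraries, edgeR and DESeq2 each called 0 genes in EG1 and 0 in LG1, where edgeR called 1.22% and 1.02% of all genes. With a term for the replicate number, edgeR called Xrcc3 and Rad52 in EG1, where it called 6.04% of all genes. In LG1 it then called Fancg and Rad52, where it called 4.20%. Without that term, 0 of the 37 had an unadjusted p under 0.05 by edgeR in either phase. In EG1 the smallest p-values were those of Xrcc3 (10.6 and 11 CPM in control, 8.15 and 9.81 with IAA), Rad52 (10.7 and 8.52 against 8.48 and 6.61) and Palb2 (22.3 and 26.3 against 19.6 and 22.0). Rad52 and Palb2 were also among the first 3 in LG1, at −0.29 (9.87 and 9.02 against 8.72 and 6.73) and −0.17 (25.6 and 30.4 against 23.0 and 26.7), beside Fancg at 0.30 ± 0.15 (15.1 and 14.1 against 16.4 and 19.5). The differences between the responses of the phases had a median of 0.07, with 6 of 37 below 0 against 47.6% of all genes. edgeR and DESeq2 called 0 and gave 0 at an unadjusted p under 0.05 (0% of all genes called by edgeR), with Rbbp8 at 0.37 ± 0.29.

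The wtSRCAP and cdSRCAP lines asked whether added SRCAP, active or dead, altered the response. With wtSRCAP 32 of 37 genes lay below 0 after IAA (52.3% of all genes) and the median was −0.22 against −0.02 over all genes. This rested in part on IAA replicate 1, the shallow library that stood apart and that was the lowest of 8 for 18 genes. Without it the median was −0.09 with 22 genes below 0, and without replicate 2 it was −0.43. With cdSRCAP 24 of 37 lay below 0 (47.7%), with a median of −0.12 against 0.02, which became 0.03 with 18 genes below 0 without control replicate 2. The summed mesoderm markers were at 4.54 and 6.60 CPM in wtSRCAP control and 9.61 and 15.9 with IAA, and at 7.14 and 7.81 against 15.6 and 17.7 in cdSRCAP. Of the 5 markers, 3 lay above both controls in each line, while 1 lay below both in wtSRCAP and 0 in cdSRCAP. In CGR8 the summed mesoderm markers were at 7.62 and 8.31 against 9.39 and 10.6. The fibroblast markers, with Lum at 0, were at 5.11 and 5.40 against 12.1 and 12.3 in wtSRCAP and at 6.47 and 7.46 against 8.38 and 8.72 in cdSRCAP. The part of such cells in the list's values was not tested. By edgeR 0 genes of the list were called in either line, where 0.00523% and 0% of all genes were, and DESeq2 called 0. At an unadjusted p under 0.05, 2 were lower with wtSRCAP and 1 with cdSRCAP, against 4.48% and 3.99% of all genes.

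Xrcc3 was at 17.1 and 15.7 CPM in wtSRCAP control and 8.58 and 12.6 with IAA, and at 15.9 and 13.3 against 10.1 and 11.2 in cdSRCAP. It thus lay below its controls in every IAA library of both lines, with log2 fold changes of −0.63 ± 0.27 and −0.45 ± 0.27 (adjusted p = 0.67 and 0.98, edgeR). Without wtSRCAP IAA replicate 1 the former was −0.36. Rad54b was at 27.8 and 27.2 against 18.7 and 18.2 in wtSRCAP and at 33.8 and 26.0 against 24.4 and 22.1 in cdSRCAP, with a log2 fold change of −0.57 in wtSRCAP without that library. Rad51d, at 13.9 and 13.2 against 10.2 and 10.5 in wtSRCAP, was at 12.6 and 12.1 against 8.25 and 6.54 in cdSRCAP, a change of −0.74 ± 0.26 (adjusted p = 0.76). Nbn was at 24.7 and 24.5 against 17.1 and 21.1 in wtSRCAP and at 21.9 and 21.6 against 15.8 and 20.6 in cdSRCAP. In both lines Nbn was thus lower in each IAA library than in each control, as in the SYAT time course, and was at −0.20 in wtSRCAP without IAA replicate 1.

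Atr was at 54.5 and 50.6 CPM in wtSRCAP control and 29.1 and 44.3 with IAA, a log2 fold change of −0.22 without the former library, and at 43.3 and 51.7 against 39.4 and 46.1 in cdSRCAP. Fancd2 was at 73.9 and 93.6 against 51.9 and 82.1, and at 50 and 71.0 against 59.6 and 64.5. Fancl was at 11.3 and 15 against 9.55 and 13.3, and at 10.0 and 18.3 against 8.10 and 14.9. Fancd2 and Fancl overlapped their controls in both lines. Fanca, another core subunit, was at 79.7 and 75 against 84.7 and 67.7 in wtSRCAP and at 81.1 and 71.7 against 61.8 and 58.7 in cdSRCAP.

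The lines were then set against each other. In control cells 28 of 37 genes were lower in cdSRCAP (52.1% of all genes; median −0.14), and with IAA 17 were (47.5%; median 0.00). edgeR and DESeq2 called 0 genes of the list in each, with 0 at an unadjusted p under 0.05, where edgeR called 0% and 0.00523% of all genes. The smallest p-values were those of Chek2 at −0.52 ± 0.29 and Fancd2 at −0.47 ± 0.28 in control cells, and of Rad51d at −0.49 ± 0.26, Fanca at −0.34 ± 0.21 and Fancm at 0.35 ± 0.22 with IAA. In the control cells Chek2 was at 26.3 and 39.6 CPM in wtSRCAP and 18.6 and 27.5 in cdSRCAP, and Bard1 at 105 and 123 against 86.0 and 104, so that Chek2 overlapped and Bard1 did not. With IAA Fancm was at 75.7 and 70.0 in wtSRCAP and 105 and 80.5 in cdSRCAP, without overlap. The difference of the responses, cdSRCAP minus wtSRCAP, had a median of 0.19 with 8 of 37 below 0 (47.6%). Both tools again called 0, with 0 at an unadjusted p under 0.05 and 0% of all genes called by edgeR. Without wtSRCAP IAA replicate 1 the medians with IAA and of the difference were −0.21 and −0.01, and Fance, at 91.5 CPM in that library against 31.5 to 53.1 in the other 7, changed sign in the difference from −0.68 to 0.13. Each line is 1 clone, so that the clone and the form of SRCAP cannot be told apart.

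Intron columns were deposited beside the exon columns, and they do not hold the same thing in all groups. In the SYAT time course and EG1, 46.1% to 57.4% of genes that have 1 exon and 100 or more exon counts also had intron counts, as against 0.171% to 0.299% in CGR8, LG1, wtSRCAP and cdSRCAP. Fancf, a core gene of a single exon, had 154 exon counts and 154 intron counts in SYAT control. The intron columns of the time course and EG1 thus hold exonic reads too and are no independent measure there, and introns of LG1 and EG1 were not compared. By introns 32 genes of the list were tested in the time course, 33 in CGR8, 34 in the wtSRCAP and cdSRCAP lines and 36 after sorting, and the others had 0 or too few intron counts. Of the 36, Fancf and Xrcc3 had 0 intron counts in all LG1 libraries, and Fancc, Fancg, Rad52 and Atm in all EG1 libraries. These genes passed the filter through the other phase and could not change in that phase.

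Intron counts of Fancl were lower after IAA in several lines, in columns of both kinds. In wtSRCAP it was at 196 and 163 intron CPM in control and 111 and 82.2 with IAA, and in cdSRCAP at 203 and 168 against 135 and 117. The groups did not overlap in either line, and the log2 fold changes were −0.91 ± 0.20 and −0.56 ± 0.19 (adjusted p = 0.12 and 0.30, edgeR), the former −1.14 without wtSRCAP IAA replicate 1. In the SYAT time course Fancl introns were at 37.3 and 40.2 in control and at 18.1 to 37.1 after IAA, at −0.48, −0.66, −0.56 and −0.49 at the 4 times. In CGR8 they were at 155 and 198 against 175 and 186, at 0.03. In EG1 they were at 91.0 and 68.3 against 40.2 and 53.2, and in LG1 at 162 and 171 against 166 and 119.

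Under the lenient threshold EG1 was the group with calls: Fancl at −0.77 ± 0.24 and Rad51b at −1.05 ± 0.44 were lower by introns (unadjusted p = 0.015 and 0.047 in edgeR's fit over all genes, adjusted p = 1 for both), where 2.28% of all genes were called, and DESeq2 called the same 2 genes, where it called 1.58%. Rad51b was at 303 and 187 intron CPM in control and 107 and 129 with IAA. It was not called once exon counts were subtracted or with a term for the replicate number, whereas Fancl was called in both. Neither was called without EG1 control replicate 1 or without EG1 IAA replicate 1, and only Fancl without EG1 IAA replicate 2. In LG1 edgeR called 0 of 36 genes, with 0 at an unadjusted p under 0.05, against 3.94% of all genes called, and DESeq2 called 1, Rad54l, where it called 2.41%. These fits scaled both phases together. In fits of each phase alone, edgeR tested 32 genes of the list in EG1 and 34 in LG1. It called Fancl and Rad51b in EG1, where it called 1.81% of all genes, and 0 in LG1, where it called 2.62%.

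In wtSRCAP the introns of Fancb were at 18.8 and 18.6 CPM in control and 6.89 and 9.03 with IAA, on 13 and 38 counts, a change of −1.20 ± 0.37 (adjusted p = 0.24, edgeR) that was −1.05 without IAA replicate 1. Those of Atm were at 149 and 137 against 94.8 and 113, and in cdSRCAP at 141 and 141 against 115 and 116. Wrn was at 102 and 109 against 79.4 and 79.6 in wtSRCAP and 113 and 113 against 85.5 and 92.8 in cdSRCAP. Atm and Wrn thus lay below their controls in all IAA libraries of both lines by introns. At an unadjusted p under 0.05, 5 of 34 genes were lower with wtSRCAP and 4 with cdSRCAP, against 6.61% and 7.49% of all genes. No gene was called by edgeR, where 0.299% and 0.236% of all genes were, and DESeq2 called Fancl in wtSRCAP, where it called 2.10% of its genes, and 0 in cdSRCAP, where it called 155 of 10312 genes. Between the lines 0 were called by either tool in control cells, with IAA or for the difference of the responses, with 0 at an unadjusted p under 0.05 and 0.102%, 0.0157% and 0% of all genes called by edgeR.

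**Figure D5:**
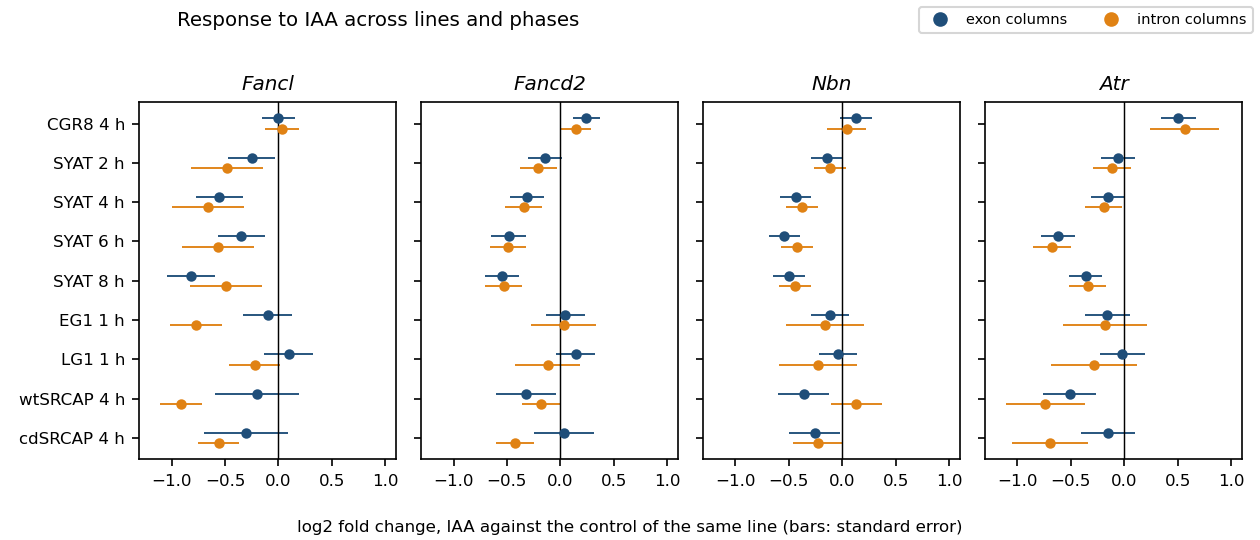
Log2 fold change after IAA against the control of the same line (x axis) for Fancl, Fancd2, Nbn and Atr in 9 comparisons (y axis), by exon (blue) and intron (orange) counts, with bars for the standard error, n = 2 libraries a group. Fancl introns lie left of 0 in the SYAT time course, EG1, wtSRCAP and cdSRCAP and at 0.03 in CGR8.

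For the other intron comparisons edgeR called 0 of the list at 2, 4, 6 and 8 h (0%, 0%, 0.0136% and 0.00679% of all genes), for the slope (2.02%), for 8 h against 2 h (0.00679%) and in CGR8 (0.0220%). DESeq2 called Atr at 6 h (3.66% of all genes), Nbn and Fancd2 for the slope (7.32%), and 0 in the others. At an unadjusted p under 0.05, 0 genes were lower at 2 h, 2 at 4 h, 4 at 6 h and 2 at 8 h, against 3.29%, 5.87%, 7.98% and 7.85% of all genes. For the slope 4 were lower (10.3% of all genes), for 8 h against 2 h 0 (2.21%) and in CGR8 1, Chek2 (2.68%). Fance was the 1 gene higher, at 6 h, against 6.53% of all genes. The intron slopes of Fancd2 and Nbn were −0.07 ± 0.02 and −0.06 ± 0.02 per hour (adjusted p = 0.062 and 0.068, edgeR).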

How the data were processed

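Nuclear RNA of 30 libraries was sequenced with a directional kit. The authors mapped reads to mm10 with STAR, took exons from GENCODE vM25 and introns from gene bodies minus exons, and deposited raw counts per gene by featureCounts in 4 tables. The submitters' processing notes also name SAMtools 1.10, Picard and DESeq2. The strand setting of the counting is not given in the sources used here.

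Each table was fitted whole by edgeR 4.0.16 (R 4.3.3) with TMM scaling, filterByExpr (minimum count 10, minimum total 15), the quasi-likelihood test and Benjamini-Hochberg adjustment over all genes, without a replicate block. Calls needed an absolute log2 fold change over 0.5 and an adjusted p under 0.05, over 0.25 and an unadjusted p under 0.05 for IAA in EG1 and LG1, and an adjusted p under 0.05 for slopes and differences of responses. DESeq2 1.42.0 was an alternative. The script was tested on simulated data. With 2 libraries a group the precision is limited, and p-values measure the spread between duplicates. Duplicates were not identical. Gene IDs were matched to GENCODE symbols, 54349 with and 55141 without their version.

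Values per library are given for Brca1, Brca2, Fancd2 and Atm, for genes called in any comparison, for the 10 smallest p-values of the exon slope and for the 3 smallest of each other exon comparison. Exo1, Mus81, Fanci, Rad50, Mre11a and the intron values of Fancb, Atm and Wrn were chosen after their values were seen. The genes and lists were chosen with earlier results of these data known.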

Additional observations from a re-analysis of the deposited data

Results flagged for a closer look

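For 7 of 37 genes (Atr, Exo1, Fancb, Fancd2, Nbn, Rad52 and Xrcc2) every SYAT library at 4 h of IAA lay below both SYAT controls while every CGR8 library at 4 h lay above both CGR8 controls, against 4.51% of the 18368 genes tested in both tables. The reverse was seen for 0 of 37, against 3.53%. Log2 fold changes in SYAT exons were −0.27 for Fancb, −0.31 for Fancd2, −0.44 for Nbn, −0.22 for Rad52 and −0.15 for Atr. In CGR8 the pairs are separated by little for Exo1 (103.25 and 92.9 CPM in control, 104.86 and 103.37 with IAA), Nbn and Rad52. In SYAT they are separated by little for Fancb (11.9 and 15.3 CPM in control, 11.5 and 11.1 at 4 h), Xrcc2 (25.9 and 31.1 against 21.8 and 25.2), Atr and Rad52. The difference between the lines was not tested, since they stand in separate tables that were normalized apart.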

How the results depend on the processing

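The 2 slopes called in exons became 1 gene without the filter on low counts, where 1.99% of all genes were called. Their number also changed when 1 library was left out, as given above. Counts of called genes in exons rose from 0 without the filter in CGR8 (1, against 1.26% of all genes), at 6 h (2, against 2.47%) and for LG1 against EG1 (1, against 0.190%). With DESeq2 they rose at 6 h (1, against 3.98%). With 1 library left out they changed in CGR8, at 6 h and in EG1, in fits that leave 1 library in a group. Without the filter, intron counts became 1 in LG1 (2.92% of all genes), 3 in wtSRCAP (2.34%) and 1 for cdSRCAP against wtSRCAP with IAA (1.91%). DESeq2 gave 1 at 6 h, 2 for the slope, 1 in LG1 and 1 in wtSRCAP. The 2 of EG1 became 1, Fancl, with the size factors of DESeq2 (1.98% of all genes). When exon counts were subtracted they became 4, Fancl, Rad50, Rad54l and Slx4 (4.86%). Rad51b was thus called in neither setting. With 1 library left out, intron counts changed in EG1, CGR8, LG1 and wtSRCAP, at 6 h and for the slope. They also changed between the lines with IAA and for the difference of their responses.

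Median log2 fold changes in exons with 1 library left out were 0.015 to 0.094 in CGR8, −0.34 to −0.080 at 8 h, −0.18 to 0.047 for 8 h against 2 h, −0.24 to 0.057 in EG1, −0.013 to 0.15 in LG1, 0.072 to 0.30 for LG1 against EG1 in control, −0.17 to 0.031 in cdSRCAP, −0.28 to −0.059 between the lines in control, −0.43 to −0.088 in wtSRCAP, −0.053 to 0.26 for LG1 minus EG1, −0.21 to 0.25 between the lines with IAA and −0.0052 to 0.41 for cdSRCAP minus wtSRCAP. There Fance ranged from −1.25 to 0.13, and changed sign without wtSRCAP IAA replicate 1. The causes were not tested. Medians in exons kept their sign under the other scaling, DESeq2, no filter, the replicate block and the fit of 2 groups, other than EG1 (0.00 with the other scaling and DESeq2) and the lines with IAA (−0.03 with both, −0.01 in the fit of 2 groups).

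Replicate numbers were shared by the groups, but the labels tie them to no batch, so the main fits held no replicate term. Deviations of same-numbered libraries correlated at 0.30 in CGR8, −0.02 to 0.73 in the time course, 0.64 to 0.82 in the sorted cells and 0.55 to 0.66 in wtSRCAP and cdSRCAP (exons). With the replicate block 3 genes were called in CGR8 (2.47% of all genes), 3 at 6 h (4.29%), 1 at 8 h (3.30%), 3 for the slope (7.97%), 2 in EG1 (6.04%) and 2 in LG1 (4.20%) in exons, and 2 for the slope (5.32%), 2 in EG1 (4.32%), 2 in wtSRCAP (292 of 12702 genes) and 1 in cdSRCAP (2.52%) in introns. For LG1 against EG1 in control the block turned 0 calls into 5, Brca1, Bard1, Rad54l, Brip1 and Exo1, where 0.723% of all genes were called. Fits of LG1 against EG1 introns were not run.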
